A study of Mus musculus with 7 samples.

Results

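A set of 8 marker genes of the ventricular wall was followed across the libraries: Prom1, Cd24a, Nes, Vim, Gfap, S100b, Fabp7 and Egfr. They were chosen by symbol as genes that serve to tell ependymal cells from ventricular stem cells, and all 8 were found among the 32531 symbols of the count tables. The line, Dcdc2a-TRAP ES2575, was sampled as adults, and the tissue came from around the ventricles of the brain. Its mice carry an EGFP-tagged ribosomal protein Rpl10a under the control of Dcdc2a. TRAP (translating ribosome affinity purification) pulls tagged polysomes out of a homogenate with antibodies to EGFP. The IP group held 3 libraries of ribosome-bound RNA from this pull-down (numbers 1, 3 and 4), and the Input group held 4 libraries of total RNA (numbers 1 to 4). Both groups come from the same transgenic line, so the tag is present in the Input tissue too, and any cell that uses the Dcdc2a promoter can carry it. Nothing in the labels says whether the libraries of a group came from separate animals, so p-values measure the spread between these libraries, which may be technical.

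Ependymal cells form the ciliated lining of the ventricles. In the lateral ventricle, stem cells with astrocyte features sit among them and touch the ventricle with a primary cilium, and both arise from the radial glia of the embryo. The classical markers overlap. Ependymal cells carry CD24 and S100B and contain vimentin, stem cells contain GFAP and take up nestin and EGFR when they become active, and CD133 (the Prom1 product) has been described on both. Vimentin and nestin are also made by cells of blood vessels and meninges, GFAP and S100B by ordinary astrocytes, and FABP7 by radial glia and astrocytes. IP holds ribosome-bound RNA and Input total RNA. A difference between them cannot tell which cells make an RNA from how much of it sits on ribosomes. Nor can it tell more cells of a type from more RNA per cell.

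Counts assigned to genes were between 42422439 and 52175180 in IP and between 37203427 and 44754345 in Input. Values are given as counts-per-million (CPM) on the scale of TMM normalisation, and 3 counts in a library correspond to 0.0585 to 0.0819 CPM (counting error only). IP 1 stood apart from the other IP libraries. Reads outside any gene made up 18.4% of the reads in its table, against 8.85% in IP 3 and 8.15% in IP 4, with 15.2% to 18.2% in the Inputs. Reads falling in more than 1 gene made up 1.51% to 2.01% in IP and 9.33% to 12.9% in Input. The gene that drives the tag, Dcdc2a, had 43.6, 411 and 175 CPM in IP 1, IP 3 and IP 4, against 27.7 to 73.9 CPM in the Inputs, and did not pass the test (log2 fold 2.21 ± 0.63 SE, edgeR adjusted p = 0.0743). It was called without IP 1 (2.69, edgeR adjusted p = 0.00205). A list of ependymal marker genes was chosen with earlier results of these data known. Of its 12 genes, such as the cilium factor Foxj1, all 12 were higher in IP, against 3.64% of all tested genes. Their summed level was 250, 3460 and 2850 CPM in IP 1, IP 3 and IP 4, against 42.2 to 67.7 CPM in the Inputs. Foxj1 itself had 32.2, 345 and 427 CPM in IP, against 4.34 to 13 CPM in the Inputs (edgeR adjusted p = 0.0147). With the block 6 of the 12 were called, and not Foxj1 (edgeR adjusted p = 0.129) nor Ccdc153 or Mia (0.0606 each), which had the smallest p of the list without it (edgeR adjusted p = 0.0108 for Ccdc153 and 0.0117 for Mia). Mia shares exons with Gm21983 and is uncertain. Leaving out IP 1, IP 3 or IP 4 gave ependymal counts of 12, 10 and 1, and leaving out Inputs 1 to 4 gave 3, 1, 0 and 0. In those last 5 fits 0 genes of the other 14 lists used below were called in either direction.

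Of the 8 markers 3 (Cd24a, Vim and Gfap) were higher in IP than in Input, and 0 were lower (edgeR's quasi-likelihood test, Benjamini-Hochberg adjusted p under 0.05 over 17375 genes). Among all tested genes 3.64% were called higher and 2.16% lower. The same 3 markers had every IP library above every Input, as 9.55% of all tested genes did. At an unadjusted p under 0.05 edgeR had 6 of the 8 higher and 0 lower, where 13.3% of all tested genes were higher and 9.4% lower. The median log2 fold of the 8 was 1.45, against 0.06 over all tested genes, and 7 of the 8 folds were positive. Without IP 1 the members called higher numbered 6, with Nes, S100b and Prom1 added, where 12.5% of all genes tested were called higher and 9.55% lower. With the replicate number as a block, which compares each IP with the Input of the same number and sequencing lane and leaves Input 2 without a partner, 0 of the 8 were called, where 0.553% of all genes were called higher and 0.19% lower. DESeq2 called 5 of the 8 (with 8.03% of all genes higher), limma voom 0 (0.432%) and edgeR without a low-count filter 2 (2.33%). Without IP 3 the count was 2 (1.91%). It was 0 without IP 4 (0.0556%) and 0 without Input 1, 2, 3 or 4 (0.123%, 0.0704%, 0.0235% and 0.0236%). All 8 markers had reads in every library.

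**Figure D1:**
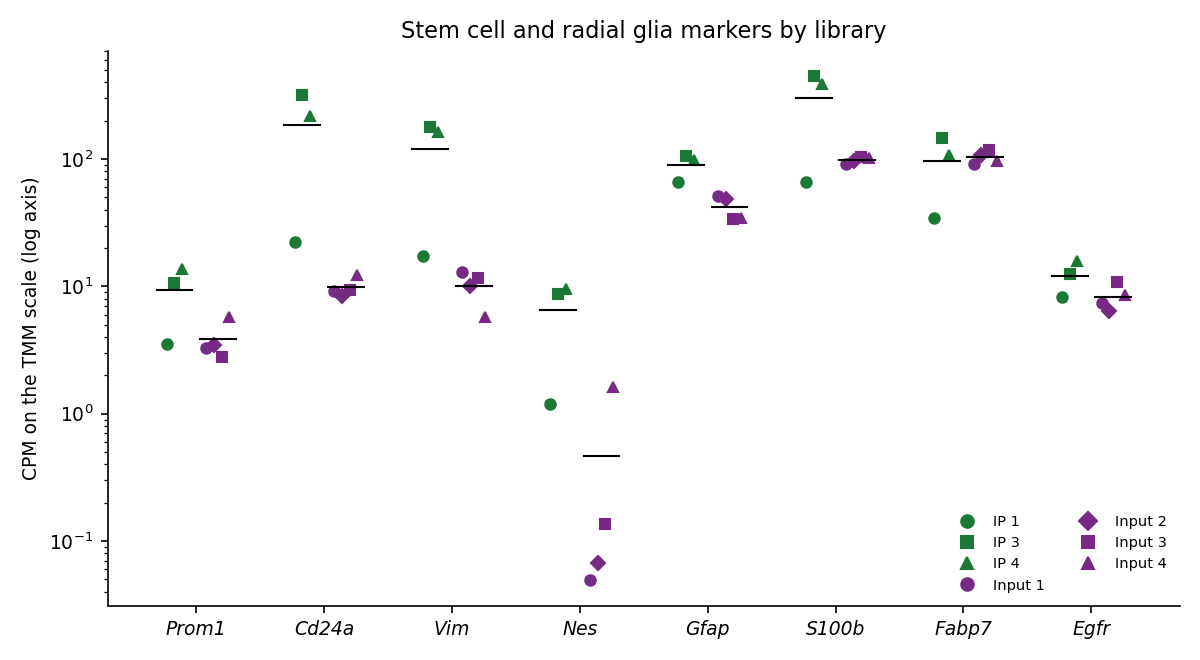
CPM on the TMM scale (log axis) of the 8 markers in each library, with IP in green on the left and Input in purple on the right of each gene, marker shapes for replicate numbers and black lines for group means. All 3 IP libraries of Cd24a, Vim and Gfap lie above their Inputs, while IP 1 lies among or below the Inputs for Prom1, Nes, S100b, Fabp7 and Egfr.

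The surface markers came first. Cd24a (ENSMUSG00000047139.9, chromosome 10, 43578284 to 43584265, plus strand, mm10) encodes CD24, a small sialoglycoprotein held to the membrane by a lipid anchor, found on ependymal cells and on migrating neuroblasts. It had 22.5, 318 and 216 CPM in IP 1, IP 3 and IP 4, against 9.25, 8.40, 9.42 and 12.3 CPM in Inputs 1 to 4. The groups did not overlap, but IP 1 was far nearer to the Inputs than IP 3 and IP 4 were. The mean was 185 ± 150 CPM in IP (SD, n = 3) and 9.84 ± 1.69 CPM in Input (SD, n = 4). The log2 fold was 4.24 ± 0.70 (SE, edgeR adjusted p = 0.0169). Against the Input of the same lane the CPM ratio was 2.43 for number 1, 33.7 for number 3 and 17.6 for number 4. The call was lost with the replicate block (log2 fold 3.58, edgeR adjusted p = 0.106), and without IP 4 or any single Input (edgeR adjusted p between 0.0542 without IP 4 and 0.0652 without Input 3).

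Neuroblasts of this wall also carry CD24, and their part in the Cd24a level was not tested. Of 10 neuroblast genes 0 were higher and 1 lower in IP. Their folds were positive for 3 and negative for 7, with a median log2 fold of -0.26. Their summed level was 614 to 676 CPM in IP and 800 to 921 CPM in Input. Dcx, a microtubule protein of migrating neuroblasts, fell by 0.77 on the log2 scale (SE 0.19, edgeR adjusted p = 0.0423, which the replicate block took to 0.176). Stmn2, a tubulin-binding protein of growing neurites, had -0.57 ± 0.18 on that scale (SE, edgeR adjusted p = 0.0954), and was called lower without IP 1 (-0.69, edgeR adjusted p = 0.00455). Without IP 1 the neuroblast genes called lower numbered 3, where 9.55% of all genes tested were called lower. Cd24a also has 2 processed pseudogenes in the annotation, Gm15352 and Gm6212, which match its transcripts over 259 bases at 92.3% identity and over 218 bases at 96.8%. The counts leave out reads that align to several places, so the Cd24a level is uncertain. Such reads made up 19.8% of the reads in IP 1, 29.6% in IP 3 and 39.3% in IP 4, against 20.9% to 21.2% in the Inputs.

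Prom1 (ENSMUSG00000029086.15, chromosome 5, 43993620 to 44102032, minus strand) encodes prominin-1 or CD133, a cholesterol-binding protein of membrane protrusions and cilia. It had 3.56, 10.6 and 13.8 CPM in IP 1, IP 3 and IP 4, against 3.31, 3.49, 2.81 and 5.75 CPM in the Inputs. IP 3 and IP 4 were above every Input, and IP 1 lay within the Input range. The log2 fold was 1.28 ± 0.54 (SE) and did not pass (edgeR adjusted p = 0.191), with means of 9.32 ± 5.25 CPM in IP (SD, n = 3) and 3.84 ± 1.30 CPM in Input (SD, n = 4). Without IP 1 it was called, at 1.67 (edgeR adjusted p = 0.0213). A noncoding model on the opposite strand, Gm16401, covers 5.9% of its exons, and the strand setting of the counting is not known, so part of this count is uncertain. Stretches of its transcripts also match those of 95 other genes, the longest over 334 bases at 91.3% identity.

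The 3 intermediate filament genes differed from each other in level and in fold. Vim (ENSMUSG00000026728.9, chromosome 2, 13573927 to 13582826, plus strand) encodes vimentin, the main filament protein of radial glia and ependymal cells. Its levels were 17.4, 178 and 163 CPM in IP 1, IP 3 and IP 4, against 13, 10.1, 11.7 and 5.80 CPM in the Inputs. The IP libraries were all higher, IP 1 by a small margin over Input 1. The mean was 119 ± 88.7 CPM in IP (SD, n = 3) and 10.1 ± 3.12 CPM in Input (SD, n = 4), which is 3.56 ± 0.67 as a log2 fold (SE, edgeR adjusted p = 0.0231). Within lanes the CPM ratio of IP to Input was 1.34 for number 1, 15.2 for number 3 and 28.1 for number 4. The Vim call was lost with the replicate block (log2 fold 3.20, edgeR adjusted p = 0.174), and without IP 4 or any single Input (0.0679 without Input 1 to 0.0751 without Input 2).

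Nes (ENSMUSG00000004891.16, chromosome 3, 87971078 to 87980451, plus strand) encodes nestin, a filament protein that pairs with vimentin in neural progenitors. It was the rarest of the 8, with 60, 397 and 486 counts in IP 1, IP 3 and IP 4, against 2, 3, 5 and 66 counts in Inputs 1 to 4. In CPM these were 1.20, 8.74 and 9.48 in IP, against 0.0491, 0.0671, 0.137 and 1.62 in Input. Input 4 held more than IP 1, while the other 3 Inputs lay close to the limit that 3 counts set. The log2 fold was 3.78 ± 1.27 (SE) and did not pass (edgeR adjusted p = 0.112). It was 4.27 and called without IP 1 (edgeR adjusted p = 0.0142), and 6.23 without Input 4 (edgeR adjusted p = 0.0518). Within lanes the CPM ratio of IP to Input was 24.5 for number 1, 64.1 for number 3 and 5.85 for number 4. The exact 95% intervals from counting alone were 6.49 to 207, 27.2 to 198 and 4.51 to 7.68.

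Gfap (ENSMUSG00000020932.14, chromosome 11, 102887336 to 102900912, minus strand) encodes the filament protein of astrocytes and of the astrocyte-like stem cells. It had 65.5, 106 and 97.6 CPM in IP 1, IP 3 and IP 4, against 51.0, 48.3, 34.1 and 34.3 CPM in the Inputs. The groups did not overlap, and here IP 1 was closer to the other IP libraries than for Cd24a or Vim. The mean was 89.6 ± 21.3 CPM in IP (SD, n = 3) and 41.9 ± 9.00 CPM in Input (SD, n = 4), which is 1.10 ± 0.25 as a log2 fold (SE, edgeR adjusted p = 0.0358). The CPM ratio within lanes was 1.28, 3.10 and 2.84 for numbers 1, 3 and 4. The block ended this call as well (log2 fold 1.17, edgeR adjusted p = 0.165), and so did leaving out IP 3, IP 4 or any single Input (0.0805 without Input 1 to 0.128 without IP 4).

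**Figure D2:**
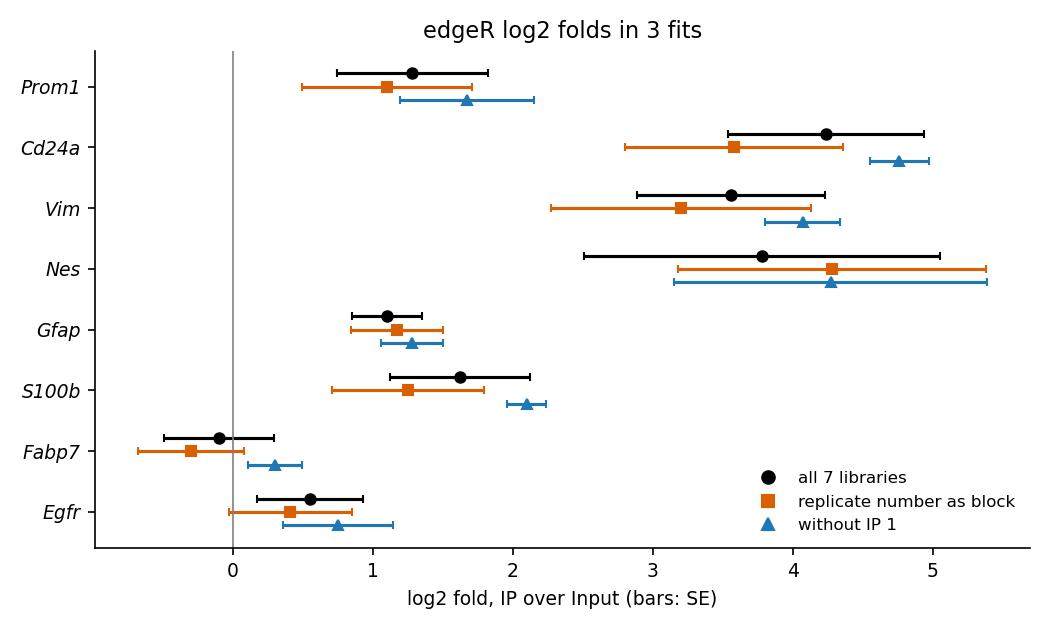
Log2 folds of IP over Input with standard errors from edgeR for the 8 markers, over all 7 libraries (black circles), with the replicate number as a block (orange squares) and without IP 1 (blue triangles). Cd24a, Vim and Nes have the largest folds in each of these fits, and Fabp7 lies at -0.10, -0.30 and 0.30.

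Set against each other within a library, the filament genes gave ratios that do not depend on scaling between libraries. The log2 ratio of Vim to Gfap in CPM was -1.91, 0.75 and 0.74 in IP 1, IP 3 and IP 4, against -1.97, -2.25, -1.54 and -2.56 in the Inputs. In IP 3 and IP 4 Vim reads were thus more numerous than Gfap reads, whereas Gfap reads were more numerous in IP 1 and in every Input. The mean ratio was -0.14 ± 1.53 in IP and -2.08 ± 0.43 in Input (SD, n = 3 and 4), a difference of 1.94 (two-sided exact permutation p = 0.0571, 0.129 adjusted over 3 pairs). The log2 ratio of Nes to Gfap was -4.22 ± 1.30 in IP and -7.44 ± 2.15 in Input (SD, exact permutation p = 0.0857, adjusted 0.129). That of Nes to Vim was -4.08 ± 0.27 in IP and -5.36 ± 2.41 in Input (SD, exact permutation p = 0.457, adjusted 0.457). None of the 3 pairs passed, in a design of 35 splits whose smallest p is 0.0286 before adjustment. After adjustment over the 3 pairs, a pair at this smallest p could not pass on its own. The 3 ratios also share their genes, so they are not independent.

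**Figure D3:**
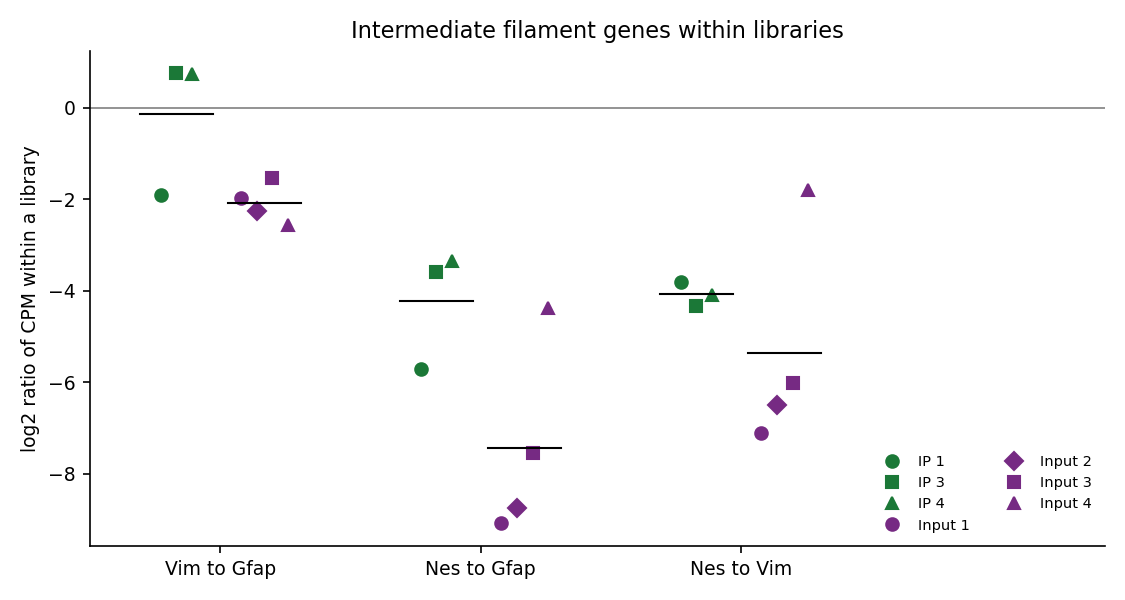
Log2 ratio of CPM between filament genes within each library, IP in green on the left and Input in purple on the right of each pair, with replicate numbers as shapes and group means as black lines. IP 3 and IP 4 lie above 0 for Vim to Gfap, and Input 4 lies above the other Inputs for the pairs with Nes.

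A RefSeq start region of each of these 3 filament genes is shown because their levels were set against each other. Each is the 250 bases before the RefSeq start (GRCm38.p6, the assembly of mm10), 5′ to 3′ on the strand of the gene, with motif matches in capitals.
Vim (chr2:13574061-13574310, plus strand): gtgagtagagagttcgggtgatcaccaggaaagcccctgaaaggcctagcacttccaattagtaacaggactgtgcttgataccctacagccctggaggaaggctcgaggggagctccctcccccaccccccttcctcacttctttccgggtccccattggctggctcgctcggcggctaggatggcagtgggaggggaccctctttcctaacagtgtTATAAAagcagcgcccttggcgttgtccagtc
Gfap (chr11:102897201-102897450, minus strand): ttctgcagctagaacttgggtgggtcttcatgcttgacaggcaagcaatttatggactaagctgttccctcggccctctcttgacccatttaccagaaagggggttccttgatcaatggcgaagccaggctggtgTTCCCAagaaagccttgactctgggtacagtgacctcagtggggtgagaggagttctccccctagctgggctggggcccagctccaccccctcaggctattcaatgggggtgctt
Nes (chr3:87970843-87971092, plus strand): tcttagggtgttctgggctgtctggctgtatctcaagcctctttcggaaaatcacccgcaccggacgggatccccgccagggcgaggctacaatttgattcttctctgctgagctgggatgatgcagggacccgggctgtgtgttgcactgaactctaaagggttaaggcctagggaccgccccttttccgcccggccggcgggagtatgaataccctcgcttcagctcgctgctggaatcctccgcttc
The capitals mark a TATA box (TATAAA) before this start of Vim. Before that of Gfap they mark the core of the Notch effector RBPJ (TGGGAA, read on the other strand as TTCCCA). Both strands were searched, also for the short core of the RFX factors of ciliogenesis (GTTGCC), a forkhead core (TAAACA) and a STAT palindrome (TTCNNNGAA), and the 3 windows held none of these. Over 32851 windows of the same length 12.4% held the TATA box, 10.4% the RFX core, 12% the forkhead core, 21.6% the RBPJ core and 7.02% the STAT palindrome. By the gene positions given above, the Vim and Gfap windows lie inside the annotated genes, and the Nes window runs past the annotated start. Other starts of these genes were not searched. RefSeq windows were at hand for 7 of the 8 markers, all but Cd24a.

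S100b (ENSMUSG00000033208.7, chromosome 10, 76253853 to 76261159, plus strand) encodes a calcium-binding protein of ependymal cells, astrocytes and some oligodendrocytes. It had 65.8, 449 and 391 CPM in IP 1, IP 3 and IP 4, against 90.7, 97.3, 103 and 101 CPM in the Inputs. IP 3 and IP 4 were above every Input and IP 1 below every Input, so the groups lay on both sides of each other. The means were 302 ± 207 CPM in IP (SD, n = 3) and 98.0 ± 5.44 CPM in Input (SD, n = 4), and the log2 fold of 1.62 ± 0.50 (SE) did not pass (edgeR adjusted p = 0.0962). Without IP 1 the fold was 2.10 and called (edgeR adjusted p = 1.19e-07). The CPM ratio within lanes was 0.726 for number 1, 4.36 for number 3 and 3.88 for number 4.

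Fabp7 (ENSMUSG00000019874.11, chromosome 10, 57784881 to 57788450, plus strand) encodes the brain lipid-binding protein of radial glia and astrocytes. Its levels were 34.2, 147 and 107 CPM in IP 1, IP 3 and IP 4, against 91.1, 108, 118 and 96.1 CPM in the Inputs. IP 1 was below and IP 3 above every Input, and IP 4 lay among them. The log2 fold was -0.10 ± 0.39 (SE, edgeR adjusted p = 0.911), with means of 96.1 ± 57.0 CPM in IP (SD, n = 3) and 103 ± 12 CPM in Input (SD, n = 4). Its sign was positive without IP 1 (0.30, edgeR adjusted p = 0.281). Fabp7 was thus not shown to differ, with a spread in IP that is wide against the difference.

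Egfr (ENSMUSG00000020122.16, chromosome 11, 16752203 to 16918158, plus strand) encodes the receptor for EGF, a marker of activated stem cells and their transit-amplifying progeny. It had 8.31, 12.4 and 15.7 CPM in IP 1, IP 3 and IP 4, against 7.46, 6.42, 10.9 and 8.50 CPM in the Inputs. IP 3 and IP 4 were above every Input by small margins and IP 1 lay among them. The means were 12.1 ± 3.69 CPM in IP (SD, n = 3) and 8.31 ± 1.91 CPM in Input (SD, n = 4). The log2 fold of 0.55 ± 0.38 (SE) did not pass (edgeR adjusted p = 0.441), nor did it without IP 1 (0.75, edgeR adjusted p = 0.190). Short stretches of its transcripts match those of 6 other genes, the longest over 127 bases at 93.7% identity, so its count is uncertain in part.

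Per length of exon, S100b stood highest in IP and Fabp7 in Input. The order in IP by mean CPM per kb was S100b (204 ± 139), Fabp7 (76.9 ± 45.6), Cd24a (71.9 ± 58.1), Vim (25.2 ± 18.7), Gfap (21.2 ± 5.04), Prom1 (1.30 ± 0.732), Egfr (1.07 ± 0.326) and Nes (1.01 ± 0.714; SD, n = 3). Neighbours in this order overlapped over the IP libraries except for Gfap and Prom1, where the lowest Gfap library (15.5) was above the highest Prom1 library (1.93). In Input the order was Fabp7 (82.6 ± 9.64), S100b (66.0 ± 3.66), Gfap (9.94 ± 2.13), Cd24a (3.81 ± 0.654), Vim (2.14 ± 0.658), Egfr (0.734 ± 0.168), Prom1 (0.535 ± 0.182) and Nes (0.0730 ± 0.120; SD, n = 4). In Input only Egfr and Prom1 overlapped as neighbours, and these changed places when the longest transcript was taken as the length. Cd24a and Vim were above Gfap per length in IP 3 and IP 4, and below Gfap in IP 1 and in each Input. Cd24a, for instance, had 8.72, 123 and 83.6 CPM per kb in IP 1, IP 3 and IP 4, against 15.5, 25.1 and 23.1 for Gfap.

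**Figure D4:**
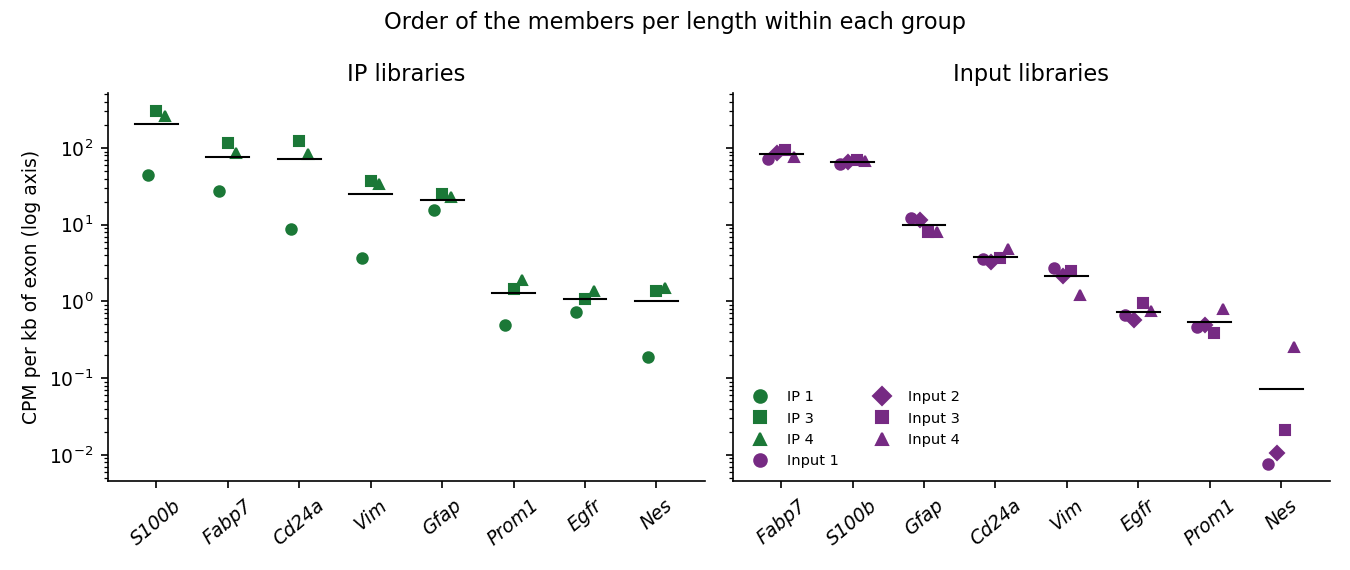
CPM per kb of exon (log axis) of the 8 markers, ordered by their mean within IP (left, green) and within Input (right, purple), with replicate numbers as shapes and black lines for means. Cd24a and Vim stand before Gfap in the IP order and after it in the Input order.

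The genes with the profile nearest to each marker were found by the root mean square difference of centred log2 CPM over the 7 libraries, among 13318 genes of a mean of at least 1 CPM. These are descriptions with no test. Nearest to Cd24a were Saxo2 (0.17) and Hist1h4h (0.23), and nearest to Vim were Nme5 (0.29) and Sncg (0.30). Near Prom1 lay Pbxip1 (0.20). Gfap was followed most closely by Traf3ip1 (0.11) and Acaa2 (0.13), and S100b by Dgat2 (0.11) and Plekha2 (0.11). Fabp7 lay nearest to Desi2 (0.08) and Lsm4 (0.09), and Egfr to Mrpl14 (0.13) and Akt1s1 (0.13). Nes had no close neighbour, with Acap1 at 0.52 and Spag8 at 0.62. Hist1h4h belongs to a family of near-identical histone genes, Mrpl14 shares exon sequence with Tmem63b on the other strand, and Plekha2 and Akt1s1 also overlap models on the other strand, so these counts are uncertain. Without IP 1, 8 of the 16 stayed among the 2 nearest.

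Genes of the same families and pathways were taken from lists. Of 13 further S100 genes 8 could be tested, and 2 of these were higher in IP and 0 lower (median log2 fold 2.22). S100a11 had 5.65, 96.4 and 36.9 CPM in IP 1, IP 3 and IP 4, against 0.469 to 1.99 CPM in the Inputs (log2 fold 5.08 ± 0.88 SE, edgeR adjusted p = 0.0184). S100a6 had 12.1, 159 and 94.2 CPM in IP, against 5.69 to 13.4 CPM in the Inputs (log2 fold 3.18 ± 0.71 SE, edgeR adjusted p = 0.0364). Neither passed with the block (edgeR adjusted p = 0.117 for S100a11 and 0.0856 for S100a6). The S100 genes called higher numbered 5 without IP 1, where 12.5% of all genes tested were higher, and 1 without IP 3 (1.91%). Of the 8 further fatty acid binding protein genes only Fabp3 and Fabp5 could be tested, and neither passed (edgeR adjusted p = 0.0966 and 0.567). Fabp3, the heart-type form, had a log2 fold of -1.06 ± 0.34 (SE), and Fabp5, the epidermal form, had 0.43 ± 0.38 (SE).

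Of 12 other filament genes and their linkers 0 were called in either direction, with 11 positive folds and a median of 0.65. The count was 1 higher without IP 1 and 1 higher without IP 3, where 12.5% and 1.91% of all genes tested were higher. The neurofilament gene Nefl had 532, 224 and 249 CPM in IP 1, IP 3 and IP 4, against 173 to 202 CPM in the Inputs, with IP 1 the highest (log2 fold 0.83 ± 0.28 SE, edgeR adjusted p = 0.116). Without IP 1 the Nefl fold was 0.33 (edgeR adjusted p = 0.128). Its exons overlap those of Nefm on the other strand, so it is uncertain. Synm, which encodes the vimentin partner synemin, had 0.79 ± 0.28 as its log2 fold (SE, edgeR adjusted p = 0.132), and was called without IP 1 (0.88, edgeR adjusted p = 0.0378).

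Around Egfr, 12 of 16 listed genes for ErbB receptors, their ligands and adaptors could be tested, and 1 was higher and 1 lower (median log2 fold -0.21). Tgfa, a ligand of the receptor, had 45.2, 48.5 and 55.0 CPM in IP 1, IP 3 and IP 4, against 99.8, 71.3, 131 and 105 CPM in the Inputs. All IP libraries were below every Input, as for 10.4% of all tested genes (log2 fold -1.04 ± 0.24 SE, edgeR adjusted p = 0.0357). Shc1, an adaptor that binds activated receptors, had 11.3, 20.2 and 19.7 CPM in IP, against 6.13, 6.42, 2.95 and 6.04 CPM in the Inputs (log2 fold 1.66 ± 0.41 SE, edgeR adjusted p = 0.0417). Blocking by number ended both calls (edgeR adjusted p = 0.0950 for Tgfa and 0.174 for Shc1), and 0 of 13 tested genes were called without IP 3. Without IP 1, where 13 were also tested, the count was 1 higher and 3 lower. That fit called 12.5% of all genes higher and 9.55% lower.

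Factors of stem cells and radial glia and genes of dividing progenitors gave no call. Of 14 stem cell and radial glia factors 0 passed in either direction, with 11 positive folds and a median of 0.70. Without IP 1, 7 were higher, where 12.5% of all genes tested were higher. Sox2, a transcription factor of neural stem cells that ependymal cells keep, had 14, 49.6 and 47.2 CPM in IP 1, IP 3 and IP 4, against 7.80 to 16.1 CPM in the Inputs (log2 fold 1.70 ± 0.44 SE, edgeR adjusted p = 0.0502). It was called without IP 1 (2.09, edgeR adjusted p = 0.000184). Hes1, a target of Notch, had 1.49 ± 0.50 as its log2 fold (SE, edgeR adjusted p = 0.110), and 1.83 without IP 1, where it was called (edgeR adjusted p = 0.00906). Of 12 genes of activated stem cells and transit-amplifying cells 0 passed (median 0.19), and their summed level was 144 to 201 CPM in IP and 128 to 182 CPM in Input. Mki67, made by dividing cells, had 1.92, 2.67 and 1.13 CPM in IP, against 8.44, 7.33, 8.90 and 1.33 CPM in the Inputs (log2 fold -1.77 ± 0.72 SE, edgeR adjusted p = 0.176). Rrm2, a subunit of ribonucleotide reductase, had 1.02, 20.3 and 11.6 CPM in IP, against 2.59 to 3.24 CPM in the Inputs (log2 fold 1.84 ± 0.75 SE, edgeR adjusted p = 0.176, and 0.00138 without IP 1). Genes that miss the threshold are not shown to be alike in IP and Input.

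Other cells make the same filament and calcium-binding proteins. Of 12 genes of astrocytes and quiescent stem cells 0 passed, with a median log2 fold of 0.65 and summed levels of 3470 to 4090 CPM in IP and 3720 to 4160 CPM in Input. The glial transcription factor Sox9 had 38.5, 311 and 213 CPM in IP 1, IP 3 and IP 4, against 44.6 to 68.1 CPM in the Inputs (log2 fold 1.76 ± 0.54 SE, edgeR adjusted p = 0.0927), and was called without IP 1 (2.24, edgeR adjusted p = 1.49e-06). The glutamate transporter gene Slc1a2 had 1040, 1470 and 1810 CPM in IP, against 2100 to 2320 CPM in the Inputs (log2 fold -0.60 ± 0.20 SE, edgeR adjusted p = 0.116). Slc1a2 was the only negative fold of the 12, and 11 were positive. Without IP 1, 7 of the 12 were higher and 1, Slc1a2, was lower (-0.42, edgeR adjusted p = 0.0391). Of all genes tested in that fit 12.5% were higher and 9.55% lower.

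Mural cells and fibroblasts, which contain vimentin and in part nestin, had many genes higher in IP. Of 13 listed 7 were higher and 0 lower, with a median log2 fold of 3.56, and their summed level was 113, 1420 and 693 CPM in IP 1, IP 3 and IP 4, against 45.3 to 97.9 CPM in the Inputs. Vtn, made by pericytes, had 14.6, 239 and 90 CPM in IP, against 3.61 to 8.02 CPM in the Inputs (log2 fold 4.51 ± 0.78 SE, edgeR adjusted p = 0.0185). The collagen gene Col1a1 had 2.78, 29.1 and 31.1 CPM in IP, against 0.540 to 2.43 CPM in the Inputs (log2 fold 4.02 ± 0.80 SE, edgeR adjusted p = 0.0231). Of the 13 only Kcnj8, a channel of pericytes, was at 0 in any library. The count was 11 without IP 1, 2 without IP 3, 0 without IP 4 or any single Input, and 1 with the block. The shares of all genes called higher were 12.5% without IP 1, 1.91% without IP 3 and 0.553% with the block. The part of these cells in the Vim and Nes levels was not tested. Endothelial cells, the inner wall of the vessels, had 1 of 9 tested genes higher and 0 lower (median -0.21), with summed levels of 9.01 to 31.5 CPM in IP and 10 to 20 CPM in Input. That gene was the adhesion gene Cdh5 (log2 fold 3.66 ± 0.84 SE, edgeR adjusted p = 0.0356, which the block took to 0.244), whereas Ly6c1 had -1.27 ± 0.87 (SE, edgeR adjusted p = 0.437). Tie1 was at 0 in at least 1 library and was not tested.

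**Figure D5:**
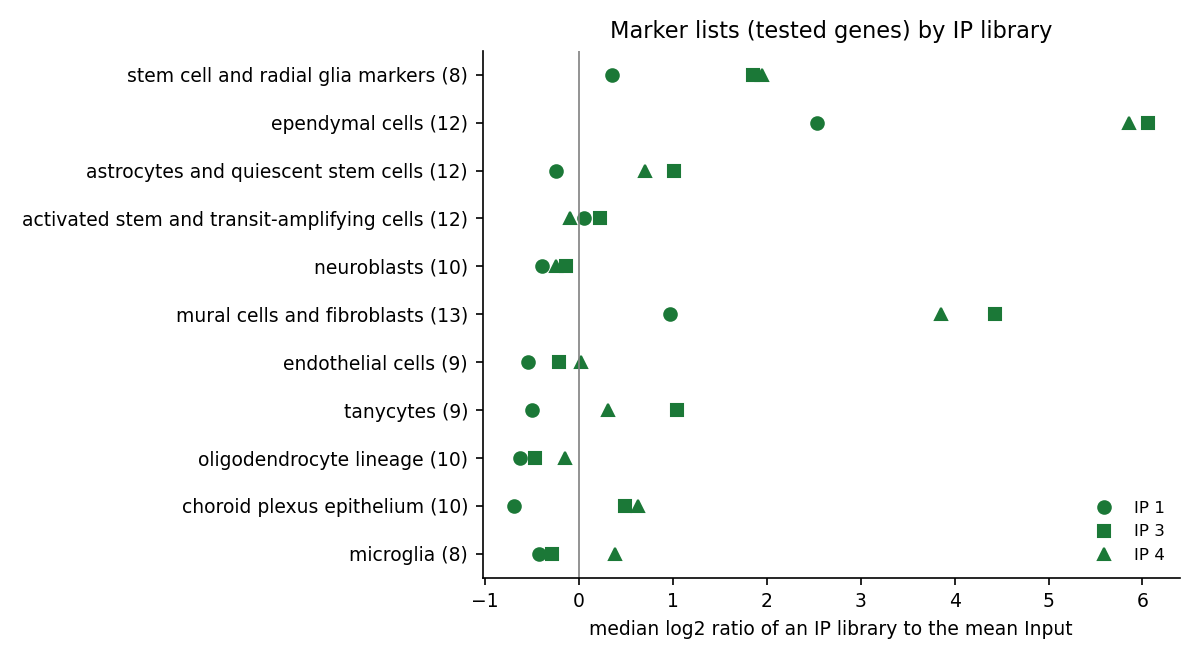
Median log2 ratio of each IP library (shapes for replicate numbers) to the mean Input, over the tested genes of each marker list, with the number of genes in brackets. The ependymal list lies at 2.53, 6.06 and 5.86 in IP 1, IP 3 and IP 4, the mural and fibroblast list at 0.97, 4.43 and 3.85, and the 8 stem cell and radial glia markers at 0.35, 1.85 and 1.95.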

How the data were processed

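The authors deposited whole-number read counts per gene symbol, with no normalisation, in a table for each of the 7 libraries. The aligner STAR 2.0.0e, the counter HTSeq and build mm10 are named, per the submitters' processing notes. Settings, annotation and strand were not given in the sources used here. Lines for unassigned reads (40.1% to 52.1% per library) and a line named unknown were left out.

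Genes were kept with filterByExpr (minimum count 10, total 15), which left 17375, among them all 8 markers. IP was tested against Input over 7 libraries with edgeR 4.0.16 in R 4.3.3 (TMM factors, glmQLFit with robust moderation, glmQLFTest, group only), with Benjamini-Hochberg adjustment over all tested genes and a threshold of 0.05. The standard error is the log2 fold divided by the root of the test statistic. Log2 CPM used a prior count of 2. Exon lengths and positions came from GENCODE M21 (GRCm38, the mm10 assembly), near-identical transcripts from BLAST+ 2.17.0 (at least 90% identity over 100 bases), and start windows from RefSeq.

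The main fit used the group only and took no pairs. Same-numbered IP and Input libraries share a lane per the labels, and were taken as pairs in the replicate block and in the ratios within lanes. Their deviations from the group means correlated across genes at 0.0318, 0.0426 and 0.0258 for numbers 1, 3 and 4. Each was the highest value of that IP with any Input, but all are too weak to show whether the libraries are pairs. Replicates of a group differed by far more than sampling noise.

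Genes named are the markers, Dcdc2a and Foxj1, the 2 genes of each of 15 lists with the smallest p, and the 2 nearest profiles of each marker, skipping models without a proper name. A gene that this rule takes is not reported. The markers and lists were chosen with earlier results of these data known. Alternatives were other scalings, no filter, DESeq2 1.42.0, limma voom (limma 3.58.1), the replicate block and leaving out each library. No gene set was tested. Exons of Slc1a2, Synm, Fabp3, Tgfa, Dio2 and Mobp overlap those of other models in part, so these counts are uncertain.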

Additional observations from a re-analysis of the deposited data

Results flagged for a closer look

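Input 4 held 1.62 CPM of Nes, whereas the other Inputs held 0.0491 to 0.137 CPM. This gap was 0.944 of the range of the 4 Inputs, past the limit of Dixon's rule. Input 4 was also the highest Input for Acap1 (0.442 CPM, against 0 to 0.0546) and Pbxip1 (23.3 CPM, against 16.3 to 16.5). Input 2 was the highest for Vtn (8.02 CPM, against 3.61 to 4.29) and the lowest for Rrm2 (2.59 CPM, against 3.21 to 3.24). Input 3 was the highest for Plekha2 (27.0 CPM, against 20.9 to 21.7) and the lowest for Shc1 (2.95 CPM, against 6.04 to 6.42). In all, 7 of 56 genes compared in this way stood out. Chance gives about 1 in 20 for independent genes. Some of the 56, such as Acap1, were taken because their profile followed a marker over these same libraries. The count can therefore not be set against chance.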

How the results depend on the processing

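Across all genes 633 were higher and 376 lower. DESeq2 called 1396 and 962, limma voom 75 and 189, and the replicate block 96 and 33. Leaving out each library in turn gave between 4 and 2259 genes higher and between 16 and 1724 lower, with the most without IP 1 and the fewest higher without Input 3 or Input 4. Of the 8 markers 3 were higher. The count was 5 with DESeq2, 0 with limma voom, 0 with the replicate block, and 0 to 6 when libraries were left out (6 without IP 1, and 0 without IP 4 or any single Input).

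Calls that were lost had log2 folds with limma voom of 3.56 (Cd24a), 3.03 (Vim) and 1.08 (Gfap), and with the replicate block of 3.58, 3.20 and 1.17. Vim was also lost without a low-count filter (3.56, edgeR adjusted p = 0.0539). DESeq2 called Nes (3.77) and S100b (1.61). Over the fits that left out a library the log2 folds ranged from 3.60 to 4.76 for Cd24a, 3.15 to 4.07 for Vim, 0.95 to 1.28 for Gfap, 3.4 to 6.23 for Nes, 1.22 to 2.10 for S100b, 0.88 to 1.67 for Prom1, 0.32 to 0.75 for Egfr and -0.55 to 0.30 for Fabp7, whose sign turned to positive without IP 1. The cause of these changes was not tested.

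The filament ratios kept their sign in every alternative. Those with Nes depend in part on the prior count added before taking logs. With a prior count of 0.5 in place of 2, the difference was 3.57 rather than 3.22 for Nes to Gfap. For Nes to Vim it was 1.63 rather than 1.28, and for Vim to Gfap it stayed at 1.94. With a library left out or with the block, too few splits remain for an exact test to pass. The differences with the replicate block were 1.88 (Vim to Gfap), 2.78 (Nes to Gfap) and 0.90 (Nes to Vim), and those without a library ranged from 1.49 to 2.83, 2.67 to 4.24 and 0.69 to 2.46. With the longest transcript as length 6 of the 8 markers kept their place in the Input order. Without IP 1, 8 of 16 nearest genes stayed among the nearest 2. Depth limits Nes most, with 2 to 5 counts in 3 of the Inputs.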

Other observations

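Of 10 genes of the oligodendrocyte lineage, some cells of which contain S100B, 0 were higher and 2 lower, with a median log2 fold of -0.38. They summed to 2680 to 4410 CPM in IP and 4330 to 5910 CPM in Input. The lower genes were those of the myelin proteins Mobp (log2 fold -1.17 ± 0.28 SE, edgeR adjusted p = 0.0406) and Mbp (log2 fold -0.74 ± 0.19 SE, edgeR adjusted p = 0.0468), and neither was called with the replicate block (edgeR adjusted p = 0.107 and 0.167). Without IP 1 the count was 1 higher and 3 lower, and without IP 3 it was 1 higher and 0 lower. Among all genes tested 12.5% were higher and 9.55% lower without IP 1, and 1.91% were higher without IP 3. Of 9 tested genes of tanycytes, the Vim- and Nes-containing lining cells of the third ventricle, 1 was higher and 0 lower (median 0.28), with sums of 123 to 202 CPM in IP and 166 to 207 CPM in Input. The higher gene was the sodium channel gene Scn7a (log2 fold 2.48 ± 0.58 SE, edgeR adjusted p = 0.0364, which the block took to 0.205). Dio2, for a deiodinase, had -1.20 ± 0.37 (SE, edgeR adjusted p = 0.0853), and was called lower without IP 1 (-0.84, edgeR adjusted p = 0.0156). Without IP 3, 0 tanycyte genes were called. The tanycyte regulator Rax was at 0 in at least 1 library and was not tested.

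Of 10 genes of the choroid plexus epithelium 0 passed, with 7 positive and 3 negative folds (median 0.29). Their sums were 1310 to 3150 CPM in IP and 2330 to 4200 CPM in Input. The log2 fold was 0.57 ± 0.23 for Kl (SE, edgeR adjusted p = 0.177) and for Otx2 1.03 ± 0.69 (SE, edgeR adjusted p = 0.433). Without IP 1, 2 of the 10 were higher, among them Otx2 (1.54, edgeR adjusted p = 0.0126), where 12.5% of all genes tested were higher. Of 8 microglial genes 0 passed (median -0.09), with sums of 87.2 to 159 CPM in IP and 79.2 to 132 CPM in Input. For Csf1r it was 0.87 ± 0.33 (SE, edgeR adjusted p = 0.149) and for C1qa -0.85 ± 0.65 (SE, edgeR adjusted p = 0.491). Otx2 and Csf1r overlap other models and are uncertain.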
